A study of Mus musculus with 9 samples.

Results

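The mouse mitochondrial genome encodes 10 protein subunits of respiratory complexes I and IV that are described here: mt-Nd1, mt-Nd2, mt-Nd3, mt-Nd4, mt-Nd4l, mt-Nd5 and mt-Nd6 of complex I, and mt-Co1, mt-Co2 and mt-Co3 of complex IV. They were chosen by symbol, through their Ensembl gene identifiers, and make up 10 of the 55421 genes in the count table and 10 of its 37 mitochondrially encoded genes. The rule itself uses no measured value. All 10 had counts in all 9 libraries and passed the filter on low counts.

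Complex I, NADH dehydrogenase, takes electrons from NADH and pumps protons across the inner mitochondrial membrane, and complex IV, cytochrome c oxidase, passes electrons to oxygen. Each complex joins a core made inside the mitochondrion to subunits encoded in the nucleus. Mitochondrial DNA is transcribed from both strands into long precursor RNAs, which are cut mostly at the transfer RNAs that lie between the genes. Neurons depend strongly on this respiration for their supply of ATP. Pieces of mitochondrial DNA have also been copied into nuclear chromosomes during evolution, and some of these copies are annotated as pseudogenes.

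RNA came from mouse hippocampus, dissociated and sorted for the neuronal fluorophore tdTomato. There were 3 libraries labelled wild-type with sham surgery, 3 labelled wild-type with a mild traumatic brain injury (mTBI), and 3 labelled Tmsb4x conditional knockout (CKO) with mTBI. The injury was a single mild controlled cortical impact, and sham mice had the same procedure with no impact. Knockout mice with sham surgery were not analysed here, so the effect of the knockout without injury and the dependence of the injury effect on genotype could not be tested. The driver of the tdTomato transgene and of the deletion, the age of the mice and the time from injury to tissue collection are not given in the sources used here. Nothing in the labels says whether replicates were separate mice, so p-values measure the spread between these libraries. That spread was estimated for each gene over all 9 libraries together. Intervals and p-values of knockout against wild-type mTBI therefore also draw on the sham libraries.

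Totals ran from 36452443 to 39590872 counts per library. Tmsb4x, the gene deleted in the knockout, stood at 1.68 to 2.73 CPM (a gene's count relative to the TMM-scaled total of its library) in the sham libraries, which are labelled wild-type, at 1.83 to 2.79 CPM in the knockout libraries and at 297 to 899.5 CPM in wild-type mTBI, so the sham libraries were at the knockout level and went against their label. They are called sham here after that label only, and each direction drawn against them rests on it. Wild-type mTBI replicate 3 held transcripts of a female mouse and the other 8 libraries those of males. Neuronal markers (10 genes) summed to 10374 to 12349 CPM, but the 7 oligodendrocyte markers summed to 5155 to 9468 CPM and the 7 astrocyte markers to 4036 to 5158 CPM. The 8 choroid plexus markers summed to 218 to 219.6 CPM in sham, to 4390 to 6159 CPM in wild-type mTBI and to 234, 4976 and 4063 CPM in knockout replicates 1, 2 and 3; no marker of any of these lists was at 0 in any library. In bulk RNA of this kind, fewer cells of a type and less RNA per cell cannot be told apart. The sham libraries were also closer to each other than the rest were: the median coefficient of variation over 7118 genes with a mean of at least 1000 counts was 2.65% in sham, 5.9% in knockout mTBI and 10.1% in wild-type mTBI. For genes with 200 to 2000 counts in a pair of libraries, the chi-square per gene against sampling of single reads averaged 2.38 to 2.42 for pairs of sham libraries and 7.93 to 19 for pairs within the injured groups. The pairs of sham libraries were thus closer to sampling noise than any pair within the injured groups. If mates count singly, sampling alone gives a higher value, so the distance of sham from sampling noise is not known. Whether the sham libraries were separate mice was not tested. With all 3 summed to 1 sample, sham has no replicates, so a lack of calls among the 10 genes in that fit decides nothing.

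The sequences of the 10 genes bear on how their counts can be read. Each gene's GENCODE M21 sequence (GRCm38) was compared with the annotated nuclear transcripts, and 6 of the 10 matched a run of pseudogene models on the minus strand of chromosome 1 at over 99% identity. The mitochondrial side of this match ran from base 6390 to base 11042 of chromosome M, 4653 bases, and the nuclear side lay at chr1:24611535-24616197. It covered the last 483 bases of mt-Co1 (model Gm29216), nearly all of mt-Co2 (Gm28661), mt-Co3 (Gm28437), mt-Nd3 (Gm28438) and mt-Nd4l (Gm10222), and the first 876 bases of mt-Nd4 (Gm28439). Counting every 150-base stretch, the read length of the libraries, 99.4% of the stretches of mt-Co2, 99.8% of those of mt-Co3, 98% of those of mt-Nd4l and 97% of those of mt-Nd3 were found unchanged in a nuclear model. For mt-Nd4 the share was 59.2% and for mt-Co1 23.6%, and for mt-Nd1, mt-Nd2, mt-Nd5 and mt-Nd6 it was 0%. Nuclear sequence outside annotated transcripts was not searched.

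The first 60 bases of mt-Nd3 (chrM:9459-9518, plus strand) and of Gm28438 (chr1:24613060-24613119, minus strand) show how close the copy is. A single base differs over the 345 aligned bases, written T3C with positions counted from 1 at the 5′ end of mt-Nd3, and capitals mark it in both.
mt-Nd3: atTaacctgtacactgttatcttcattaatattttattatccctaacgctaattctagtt
Gm28438: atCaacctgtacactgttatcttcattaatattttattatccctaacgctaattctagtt

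For mt-Nd4l no base differed over 294 aligned bases. The last 60 of these, chrM:10111-10170 on the plus strand and chr1:24612407-24612466 on the minus strand, are shown because no base in them tells one place from the other.
mt-Nd4l: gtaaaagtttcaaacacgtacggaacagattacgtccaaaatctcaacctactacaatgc
Gm10222: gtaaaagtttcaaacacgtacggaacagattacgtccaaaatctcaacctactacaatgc

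The match begins inside mt-Co1 at chrM:6390-6449 (chr1:24616129-24616188, minus strand), where the capital marks the single difference of that stretch, A1066T from the 5′ end of mt-Co1.
mt-Co1: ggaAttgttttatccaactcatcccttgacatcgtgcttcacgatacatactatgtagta
Gm29216: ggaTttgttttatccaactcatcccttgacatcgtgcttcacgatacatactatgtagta

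By contrast mt-Nd6, read from the minus strand at chrM:14011-14070, has an older copy on chromosome 4 (Gm11408, chr4:80003855-80003914) with 33 mismatches over 519 bases, or 93.64% identity. The first 60 bases already hold 2 of them, in capitals.
mt-Nd6: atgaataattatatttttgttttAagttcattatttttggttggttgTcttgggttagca
Gm11408: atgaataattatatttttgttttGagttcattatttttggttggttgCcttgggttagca

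Levels per kilobase of gene (CPM per kb, means over the 9 libraries with the SD over libraries) fell into a high and a low set. mt-Co1, which encodes the catalytic subunit of complex IV with its haem groups, was the most abundant of the 10, at 9754 ± 731 CPM per kb. mt-Nd1, a subunit at the quinone-binding joint of complex I, followed at 5360 ± 567 CPM per kb. The antiporter-like subunits of the proton-pumping arm came next, mt-Nd2 at 3373 ± 422, mt-Nd4 at 2632 ± 246 and mt-Nd5 at 2446 ± 243 CPM per kb. mt-Nd6, which alone among the 10 is encoded on the minus strand, stood at 1884 ± 365 CPM per kb. The remaining 4 were far lower: mt-Co2, the subunit that accepts electrons from cytochrome c, at 131 ± 36.6, mt-Co3, which carries no redox centre, at 76.2 ± 11.8, and the small membrane subunits mt-Nd4l and mt-Nd3 of complex I at 44.9 ± 38.2 and 31 ± 19.6 CPM per kb.

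Only 3 of the 9 steps in this order separated neighbours whose ranges over the 9 libraries did not overlap: mt-Co1 above mt-Nd1, mt-Nd1 above mt-Nd2, and mt-Nd6 above mt-Co2, a step of 14.4 times. Ranges overlapped for mt-Nd2 and mt-Nd4, mt-Nd4 and mt-Nd5, mt-Nd5 and mt-Nd6, and for each step among the lowest 4. mt-Nd2 was nevertheless above mt-Nd4 in 9 of 9 libraries, and mt-Nd5 above mt-Nd6 in 8 of 9. The genes below the large step were the 4 with at least 97% of their stretches found on chromosome 1, and the genes above it had at most 59.2%. The submitters' counting command, featureCounts 2.0.6 as recorded in the file header, did not ask for reads with several mapping places, which that program leaves out by default. How many reads this removed was not tested, and the levels of mt-Co2, mt-Co3, mt-Nd3 and mt-Nd4l are therefore uncertain as measures of transcript abundance. The same holds in part for mt-Co1 and mt-Nd4. The end of mt-Nd4l also shares 7 bases with mt-Nd4, and how reads reaching into both genes were counted was not tested.

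**Figure D1:**
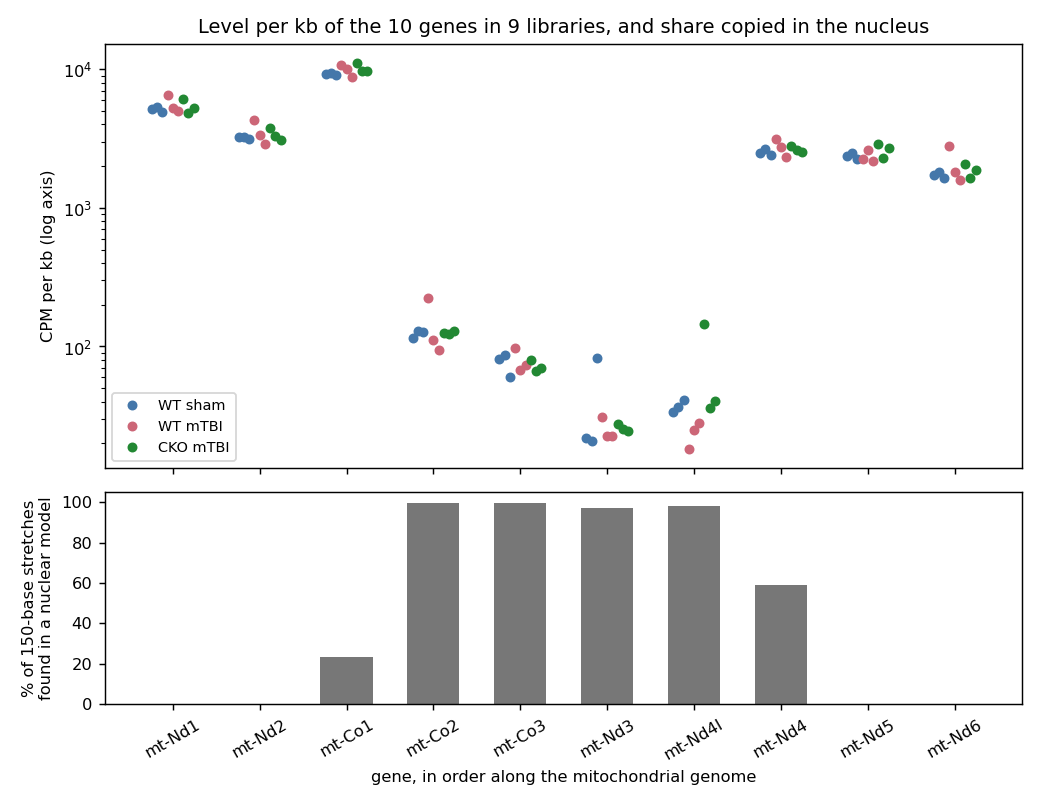
Level per kilobase of the 10 genes in order along the mitochondrial genome, in CPM per kb on a log axis with each point 1 library coloured by group, above bars for the percent of each gene's 150-base stretches found unchanged in a nuclear model. The 4 genes with bars of 97% or more have mean levels of 31 to 131 CPM per kb and the other 6 have mean levels of 1884 to 9754 CPM per kb.

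The order depended on the length used as divisor. Divided by read starts whose 150-base stretch has no identical nuclear stretch (502 of them in mt-Nd4 and 1066 in mt-Co1), a scale chosen after the match was found, mt-Nd4 stood at 7225 ± 675 CPM per 1000 starts and moved above mt-Nd1 at 6348 ± 671. All counts of a gene were kept on this scale, which assumes that none came from the starts left out. The assumption was not tested, and the place of mt-Nd4 above mt-Nd1 rests on it. On that scale mt-Co1 was at 14137 ± 1059, mt-Nd2 at 3938 ± 493, mt-Nd5 at 2664 ± 265 and mt-Nd6 at 2643 ± 512. mt-Co2, mt-Co3, mt-Nd3 and mt-Nd4l kept too few such starts, between 1 and 6, for a value. Outside the 10 genes, the single complex III subunit encoded here, mt-Cytb, stood at 7033 ± 706 CPM per kb. The ATP synthase genes mt-Atp6 and mt-Atp8 were at 109 ± 29.3 and 22.7 ± 6.14 CPM per kb. mt-Atp6 was also matched on chromosome 1 for 99.4% of its stretches. mt-Atp8, 204 bases long, had no 150-base stretch in an annotated nuclear transcript, but its last 43 bases matched the model of mt-Atp6 in full. The rest of mt-Atp8 lies between matched genes, and nuclear sequence between the models was not searched. Whether mt-Atp8 is copied there was therefore not tested. How reads reaching from this short gene into a neighbouring gene were counted was not tested either.

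The chromosome 1 models drew counts of their own. Gm28661 held 4496 to 7933 counts per library, 1.33 to 1.87 times those of mt-Co2, and Gm28437 held 4315 to 7035, 1.75 to 2.4 times those of mt-Co3. Gm10222 held 644 to 999 counts against 211 to 1643 of mt-Nd4l, and Gm28438 held 361 to 676 against 265 to 1097 of mt-Nd3. For these 4 genes the copy and the gene thus had counts of like size, although the mitochondrial neighbours mt-Co1 and mt-Nd4 had 527335 to 651762 and 126646 to 169057 counts. Gm29216 and Gm28439 took 4117 to 7149 and 1535 to 1913 counts. Adding each model to its gene raised mt-Co2 to 331 ± 74, mt-Co3 to 239 ± 37.2, mt-Nd4l to 121 ± 44.3 and mt-Nd3 to 63.9 ± 20.7 CPM per kb, all still below mt-Nd6. The older copies held few counts beside those of their genes. Gm11408 held 4 to 15 counts per library beside 32371 to 56102 of mt-Nd6. On chromosome 2, Gm13340, with 97.61% identity to mt-Co1, held 223 to 313 counts, and Gm13341, which matches mt-Co2, held 62 to 109.

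Among these low counts, single libraries stood apart. mt-Nd3 had 292, 265 and 1097 counts in sham replicates 1, 2 and 3, 421, 308 and 318 in wild-type mTBI and 366, 348 and 330 in knockout mTBI. Sham replicate 3 was thus far above the other 8 libraries, at 28.7 CPM against 7.3 to 10.8, while its count of Gm28438, 412, lay within the range of the others. mt-Nd4l had 385, 394 and 466 counts in sham, 211, 291 and 334 in wild-type mTBI and 1643, 420 and 468 in knockout mTBI. Here knockout replicate 1 was high, at 43 CPM against 5.41 to 12.2 in the rest, and its Gm10222 count of 999 was the highest of the 9 by a small margin over 971. mt-Co2 had 3048, 3189 and 3320 counts in sham, 5979, 3001 and 2611 in wild-type mTBI and 3270, 3298 and 3464 in knockout mTBI. Wild-type mTBI replicate 1 led both mt-Co2 and Gm28661. mt-Co3, with 1805 to 3003 counts, showed no library as far from the rest.

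**Figure D2:**
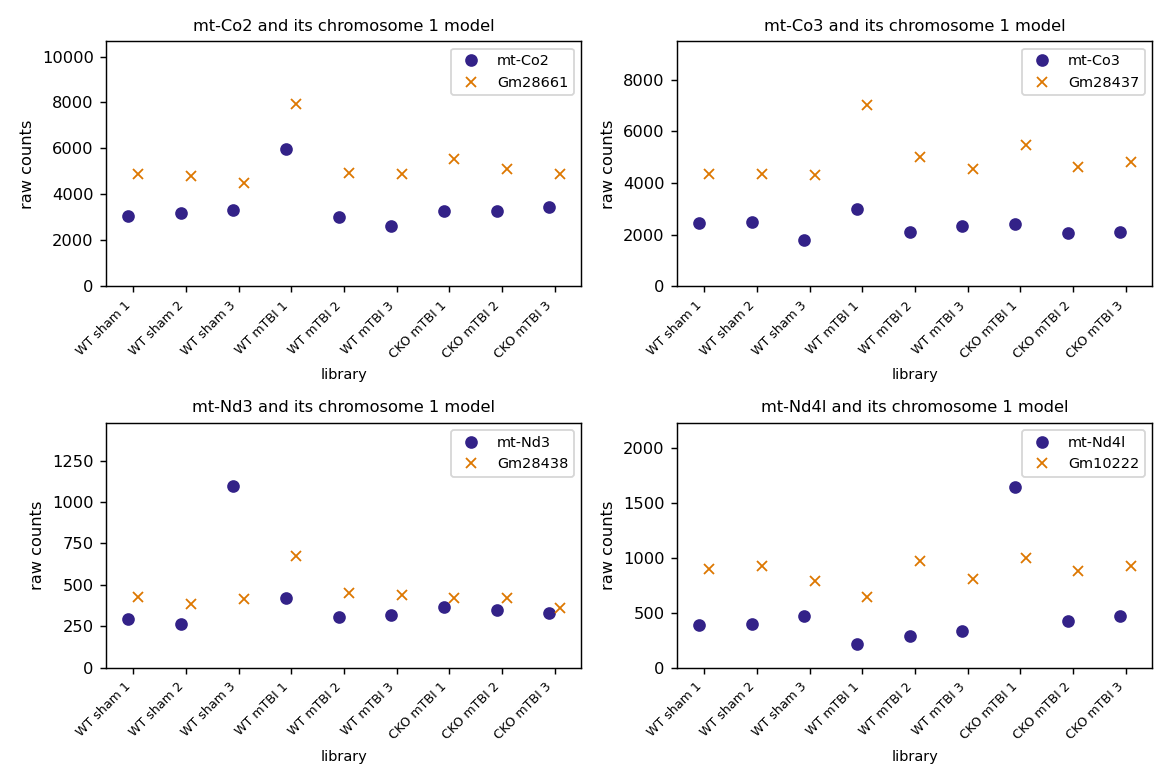
Raw counts per library of mt-Co2, mt-Co3, mt-Nd3 and mt-Nd4l (circles) and of the chromosome 1 model matching each (crosses), with libraries along the horizontal axis. Sham replicate 3 stands out for mt-Nd3 (1097 counts), knockout mTBI replicate 1 for mt-Nd4l (1643) and wild-type mTBI replicate 1 for mt-Co2 (5979) and Gm28661 (7933).

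The 6 well-counted genes, those above 100 CPM in every library, varied less. mt-Co1 had 14308, 14533 and 14081 CPM in sham, 16560, 15462 and 13631 CPM in wild-type mTBI and 17041, 14924 and 15092 CPM in knockout mTBI. Its wild-type mTBI libraries lay on both sides of sham, and all 3 knockout libraries lay above sham. mt-Nd1 had 4914, 5083 and 4673 CPM in sham, 6192, 5004 and 4739 CPM in wild-type mTBI and 5880, 4657 and 5020 CPM in knockout mTBI. mt-Nd2 had 3367, 3384 and 3273 CPM in sham, 4482, 3483 and 2997 CPM in wild-type mTBI and 3890, 3410 and 3222 CPM in knockout mTBI. In both genes replicate 1 of each injured group was the highest and the groups overlapped.

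mt-Nd4 followed the same arrangement, with 3412, 3630 and 3316 CPM in sham, 4337, 3789 and 3211 CPM in wild-type mTBI and 3861, 3587 and 3500 CPM in knockout mTBI. mt-Nd5 did not: it had 4283, 4504 and 4119 CPM in sham, 4116, 4804 and 3994 CPM in wild-type mTBI and 5273, 4144 and 4916 CPM in knockout mTBI. Wild-type mTBI replicate 1, the highest of its group for the other 5 genes, was here just below the lowest sham library. mt-Nd6 had 902, 935 and 847 CPM in sham, 1439, 946 and 830.5 CPM in wild-type mTBI and 1074, 847 and 980.4 CPM in knockout mTBI, with wild-type mTBI replicate 1 far above the rest. Coefficients of variation of these 6 genes had a median of 4.35% in sham, 10.8% in knockout mTBI and 14.7% in wild-type mTBI, the same order of groups as over all genes.

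Set against the mean of the sham libraries on the log2 CPM scale, the median of the 6 genes was 0.33, 0.10 and -0.11 in wild-type mTBI replicates 1, 2 and 3, and 0.26, -0.012 and 0.057 in the knockout replicates. The sham libraries themselves ran from -0.061 to 0.059, so wild-type mTBI replicate 3 lay below them, replicates 1 and 2 and knockout replicate 1 lay above them, and the other 2 knockout libraries lay within their range. The median of 52 nuclear-encoded complex I and IV genes in the same libraries was 0.59, 0.12 and 0.084 in wild-type mTBI and 0.052, 0.0042 and 0.034 in knockout mTBI. Wild-type mTBI replicate 1 was the highest library on both measures. Knockout replicate 1 was high for the mitochondrial genes and near sham for the nuclear ones, and wild-type mTBI replicate 3 was below sham for the mitochondrial genes and above it for the nuclear ones.

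**Figure D3:**
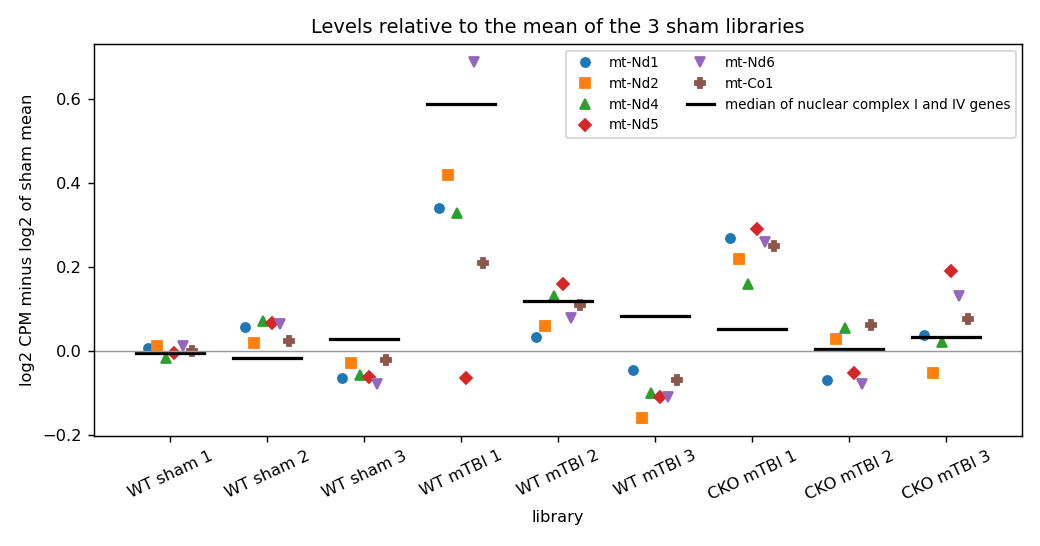
Log2 CPM of the 6 well-counted genes minus the log2 of their sham mean, by library, with a bar for the median of 52 nuclear-encoded complex I and IV genes. In wild-type mTBI replicate 1 mt-Nd6 lies at 0.69 and mt-Nd5 at -0.064, and the nuclear median lies at 0.59.

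Together the 10 genes took 3.14%, 3.21% and 3.05% of counts in sham, 3.7%, 3.34% and 3% in wild-type mTBI and 3.72%, 3.17% and 3.29% in knockout mTBI. Group means were 3.13% ± 0.0776, 3.34% ± 0.351 and 3.39% ± 0.286 (SD, n = 3 each), and the injured groups overlapped sham. mt-Co1 supplied 44.3% to 47% of the counts of the 10 genes, whereas mt-Co2, mt-Co3, mt-Nd3 and mt-Nd4l supplied 0.431% to 0.66% in all. Complex I counts divided by complex IV counts gave 1.11 to 1.23 over the 9 libraries, with group means of 1.17 ± 0.0252 in sham, 1.14 ± 0.0323 in knockout mTBI and 1.18 ± 0.0426 in wild-type mTBI. Since mt-Co1 and 5 complex I genes supply nearly all of these counts, this ratio says nothing about mt-Co2 or mt-Co3. With every gene weighted alike, by means of log2 CPM, complex I minus complex IV was 0.53 in sham, 0.368 in the wild-type injured libraries and 0.612 in the knockout. The summed counts gave 0.226, 0.234 and 0.193 on the log2 scale, so the order of the groups was the reverse. Equal weights count mt-Co2, mt-Co3, mt-Nd3 and mt-Nd4l, whose levels are uncertain, as much as the rest. Against the sham mean on the log2 scale, mt-Nd4l was at 1.96 in knockout replicate 1 and mt-Nd3 at 0.98 in sham replicate 3. mt-Co2 was at 0.86 in wild-type mTBI replicate 1.

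Ratios within the mitochondrial genome were tight except in a few libraries. Counts of mt-Nd6 divided by those of mt-Nd5, neighbours on opposite strands whose ends share 14 bases, were 0.197 to 0.211 in 8 libraries and 0.35 in wild-type mTBI replicate 1. The same library had the lowest mt-Nd5 to mt-Nd1 ratio, 0.665 against 0.843 to 0.979. Its ratio of mt-Nd2 to mt-Nd1, 0.724, was within the 0.632 to 0.732 of the others, and so was that of mt-Nd4 to mt-Nd1, at 0.7. Ribosomal RNA of the mitochondrion (mt-Rnr1 and mt-Rnr2) divided by its messenger RNA was 0.137 to 0.147 in sham, 0.193, 0.15 and 0.16 in wild-type mTBI replicates 1, 2 and 3 and 0.114, 0.178 and 0.15 in those of the knockout, on both sides of sham. Wild-type mTBI replicate 1 also had the lowest sum of 5 long RNAs kept in the nucleus, at 7112 CPM against 9107 to 10278 in the other 8. Of these RNAs, Meg3 was at 3837 CPM there and at 5454 to 6598 CPM elsewhere. Malat1 and Miat were also lowest there, at 537 and 522 CPM, but Neat1, at 130.1 CPM, was above the 94.5 to 107 CPM of sham. The same library had the lowest sum of neuronal markers, at 10374 CPM. Whether these differences play a part in its mitochondrial ratios was not tested. The counting command did not use strand, so RNA of the strand opposite mt-Nd5 or mt-Nd6 cannot be told apart from theirs.

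**Figure D4:**
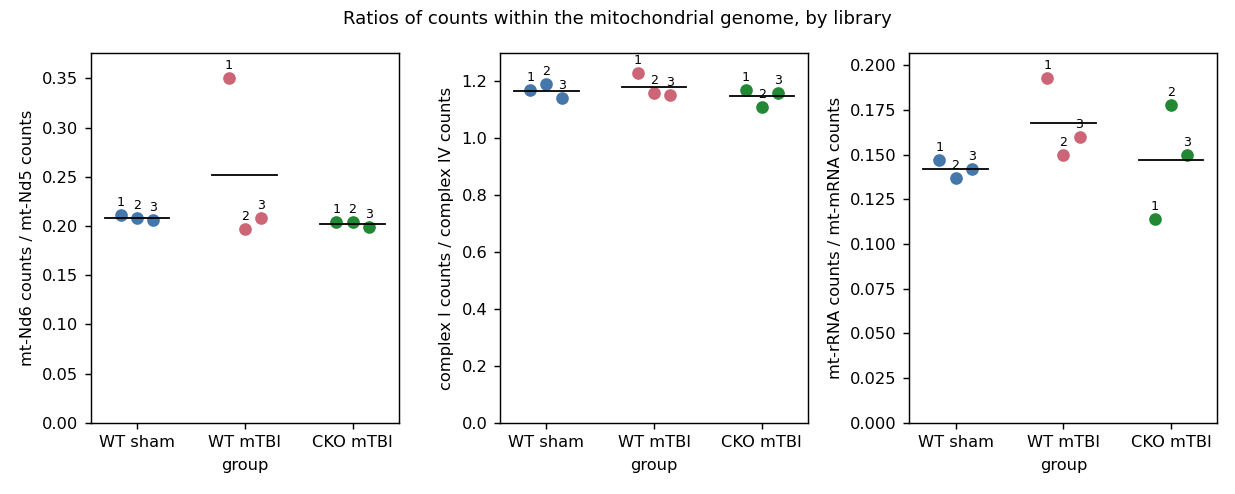
Counts of mt-Nd6 over mt-Nd5, of complex I over complex IV members, and of mitochondrial ribosomal over messenger RNA, each point 1 library with its replicate number, and lines for group means; all axes start at 0. Wild-type mTBI replicate 1 is at 0.35 for mt-Nd6 over mt-Nd5, where the other 8 libraries lie between 0.197 and 0.211.

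Wild-type mTBI was compared with the libraries labelled wild-type sham for differences with injury. Tmsb4x was at 1.68 to 2.73 CPM in sham and at 297 to 899.5 CPM in wild-type mTBI. Injury and Tmsb4x level therefore cannot be told apart here, and the words "with injury" only name this comparison. None of the 10 genes passed edgeR's quasi-likelihood test at an adjusted p under 0.05 (Benjamini-Hochberg over 20032 genes; adjusted p of 0.492 to 0.998), in a comparison where 0.509% of all genes tested were called. None reached an unadjusted p under 0.05, as 13.2% of all genes did, and none was called by DESeq2, which called 2.7%. The best-measured interval was that of mt-Co1, 0.089 on the log2 scale with a standard error of 0.09 and a 95% confidence interval of -0.10 to 0.28, that is a fold of 0.93 to 1.21. For mt-Nd1, mt-Nd2, mt-Nd4 and mt-Nd5 the differences were 0.12, 0.13, 0.13 and 0.00091, and their intervals lay between -0.22 and 0.41. For mt-Nd6 the difference was 0.26 (interval -0.11 to 0.63), with 1072 ± 323 CPM against 895 ± 44.3 CPM (SD, n = 3 each), and it was -0.011 without wild-type mTBI replicate 1.

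Among the copied genes, the intervals of mt-Co2, mt-Nd3 and mt-Nd4l were wider still, and that of mt-Co3 was close in width to that of mt-Nd6. mt-Co2 differed by 0.22 (interval -0.32 to 0.75) and by -0.26 without wild-type mTBI replicate 1, and mt-Co3 by 0.067 (-0.28 to 0.41). mt-Nd3 differed by -0.72 (-1.66 to 0.23), which became 0.25 without sham replicate 3. Summed with their chromosome 1 models, mt-Nd3 differed by -0.20, mt-Nd4l by -0.31 and mt-Co3 by 0.21. mt-Nd4l differed by -0.64 (-1.61 to 0.33), at 7.05 ± 1.49 CPM against 11 ± 1.11 CPM. It was the one gene of the 10 whose groups did not overlap, where 23.9% of all genes tested had groups that did not overlap. In all, 8 of the 10 differences were positive with a median of 0.10, against 53% positive and a median of 0.018 over all genes. Without wild-type mTBI replicate 1, 3 of 10 were positive and the median was -0.028.

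Knockout mTBI was compared with wild-type mTBI to ask what the loss of Tmsb4x changed after injury. Again none of the 10 genes was called by edgeR (adjusted p of 0.732 to 0.992), where 0.015% of all genes were called, and DESeq2 called none against 0.11% of all genes. mt-Co1 differed by 0.044 (interval -0.15 to 0.23) and mt-Nd1 by -0.035 (-0.28 to 0.21), which are folds of 0.90 to 1.18 and 0.82 to 1.16. mt-Nd2, mt-Nd4, mt-Nd5 and mt-Nd6 differed by -0.059, -0.05, 0.15 and -0.15, mt-Co2 and mt-Co3 by -0.19 and -0.15, and mt-Nd3 by 0.02. Each of these intervals held 0, and each pair of groups overlapped.

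mt-Nd4l had the largest difference of the 10 between knockout and wild-type mTBI, 1.63 on the log2 scale with a standard error of 0.44 (interval 0.66 to 2.61; edgeR unadjusted p = 0.00351, adjusted p = 0.732). Unadjusted p was under 0.05 for 6.6% of all genes. The groups of mt-Nd4l did not overlap, as was so for 9.72% of all genes tested. The group mean of 21.9 ± 18.2 CPM rested on the 43 CPM of knockout replicate 1, and without that library the difference was 0.69 (adjusted p = 0.622). Summed with Gm10222 it was 0.74 (adjusted p = 0.732). With no filter on low counts it was called, at 1.63 with an adjusted p of 0.000105. Since nearly every stretch of this gene is found on chromosome 1, the value is uncertain as a measure of mt-Nd4l. Over the 10 genes 4 differences were positive, with a median of -0.042, against 50.2% and 0.0012 over all genes. All 10 were positive, with a median of 0.12, without wild-type mTBI replicate 1, a library that both comparisons use.

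Knockout mTBI against sham is a contrast of genotype label and injury together, although Tmsb4x was at a like low level in both groups. By edgeR it called none of the 10 (adjusted p of 0.66 to 0.999) where 0.0699% of all genes were called. DESeq2 called none against 1.13% of all genes. mt-Nd4l was at an unadjusted p under 0.05, as were 7.2% of all genes, with a difference of 0.99 (interval 0.039 to 1.94) that was 0.047 without knockout replicate 1 and 0.43 when summed with Gm10222. mt-Co1 was the one gene whose groups did not overlap (17.2% of all genes tested), at 15686 ± 1177 CPM against 14307 ± 226 CPM, a difference of 0.13 with an interval of -0.058 to 0.32. mt-Nd5 differed by 0.15, mt-Nd1 by 0.085, mt-Nd4 by 0.08, mt-Nd2 by 0.07, mt-Nd6 by 0.11 and mt-Co2 by 0.028. mt-Co3 and mt-Nd3 differed by -0.082 and -0.69, the latter with sham replicate 3 in the control group and 0.27 without it. In all, 8 of 10 were positive, with a median of 0.082, against 52.6% positive and a median of 0.0099 over all genes. Without knockout replicate 1, 6 of 10 were positive and the median was 0.032.

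**Figure D5:**
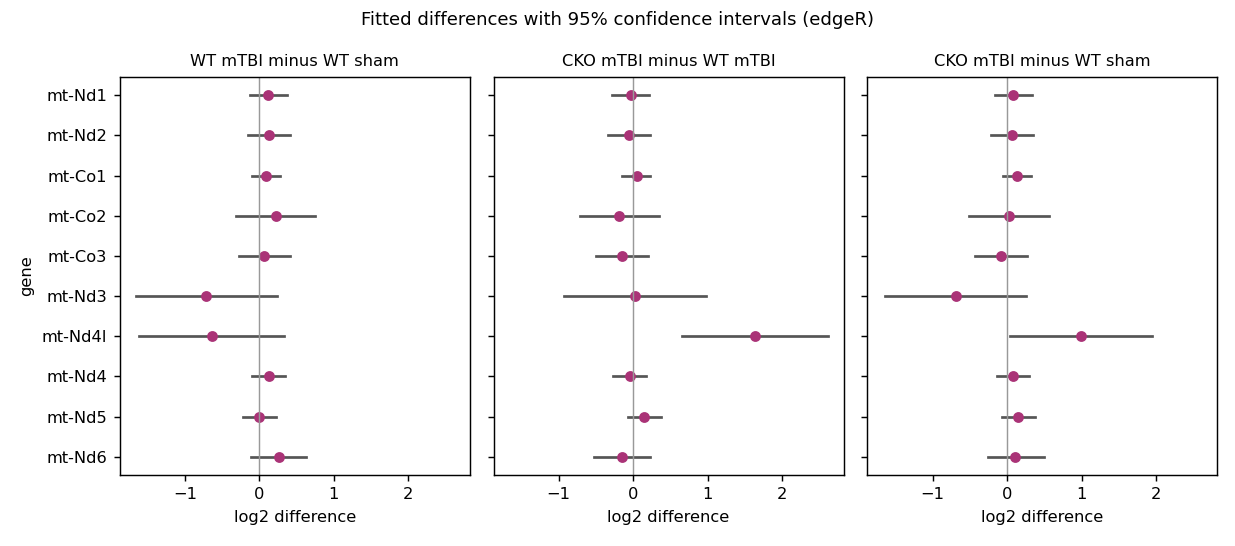
Fitted log2 differences of the 10 genes (points) with 95% confidence intervals (lines) in the 3 comparisons, genes in order along the mitochondrial genome. Intervals of the 6 well-counted genes all hold 0, and those of mt-Nd3 and mt-Nd4l are the widest; the mt-Nd4l interval lies above 0 in both comparisons of the knockout.

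The mitochondrial ribosomal RNAs, which form the mitochondrial ribosome that translates the 10 messages, were higher in each wild-type mTBI library than in each sham library, where 23.9% of all genes had groups that did not overlap. mt-Rnr1 had 2836 ± 688 CPM against 2187 ± 73.1 CPM (0.37 on the log2 scale, adjusted p = 0.319 by edgeR) and mt-Rnr2 4236 ± 1063 CPM against 3363 ± 94.2 CPM (0.33, adjusted p = 0.391). Neither passed the test, and the differences were 0.16 and 0.11 without wild-type mTBI replicate 1. In knockout against wild-type mTBI they were -0.21 and -0.20. mt-Cytb differed by 0.10 with injury and -0.0074 with the knockout. mt-Atp8, with 2.96 to 6.86 CPM per library, differed by -0.50 (adjusted p = 0.368) and 0.65 (adjusted p = 0.732).

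The nuclear-encoded partners of the 10 genes in the lists used, 36 of complex I and 16 of complex IV, did not pass the edgeR test either. All 36 nuclear complex I genes had a positive difference in wild-type mTBI against sham, with a median of 0.24 and 15 at an unadjusted p under 0.05, and 0 of 36 were called. Of 16 nuclear complex IV genes 15 were positive, with a median of 0.33 and 11 at an unadjusted p under 0.05; edgeR called 0 and DESeq2 called 4. Over all genes 53% were positive, 13.2% had an unadjusted p under 0.05 and DESeq2 called 2.7%. Ndufa6, an accessory subunit of complex I, had 58.4 ± 2.63 CPM in sham and 78.5 ± 19.4 CPM in wild-type mTBI (0.43, adjusted p = 0.221). Cox5b, a structural subunit of complex IV, had 132 ± 1.16 and 183 ± 28.9 CPM (0.48, adjusted p = 0.0969), and Cox6b2, known mainly as the testis form of a complex IV subunit, 2.06 ± 0.239 and 4.3 ± 1.19 CPM (1.06, adjusted p = 0.0809). Each of these 3 was highest in wild-type mTBI replicate 1. The median over the 52 nuclear genes was 0.28 with all libraries and 0.11, with 44 of 52 positive, without that library; the 10 mitochondrial genes stood at 0.10 and -0.028 in the same fits. Choroid plexus markers and the nuclear RNAs given above also differed between these libraries, and their part in the nuclear differences was not tested.

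With the knockout, 0 of 36 nuclear complex I genes and 1 of 16 nuclear complex IV genes had a positive difference, with medians of -0.24 and -0.33 and no call by either tool. At an unadjusted p under 0.05 there were 11 and 10, against 6.6% of all genes, of which 50.2% were positive. The injury and the knockout comparison share the wild-type mTBI libraries, so a library that is high there moves both in opposite directions. Without wild-type mTBI replicate 1 the knockout median over the 52 genes was -0.081, with 12 of 52 positive. In knockout mTBI against sham the medians were 0.026 and 0.027.

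Factors that build the complexes and express or copy mitochondrial DNA were not called in any comparison by edgeR. With injury 13 of 14 complex I assembly factors and 18 of 20 tested complex IV assembly factors were positive, with medians of 0.11 and 0.16; at an unadjusted p under 0.05 there were 3 and 2, where 13.2% of all genes were under 0.05 and 53% were positive. Of 24 tested genes for transcription and RNA handling in mitochondria 19 were positive (median 0.062, 1 at an unadjusted p under 0.05), and of 7 genes for mitochondrial DNA replication 4 (median 0.041, none at that level). DESeq2 called none of these 4 lists. Among 8 regulators of mitochondrial biogenesis 3 were positive, with a median of -0.025. Esrra, a nuclear receptor that acts on respiratory genes, had 40.2 ± 0.158 CPM in sham and 48.6 ± 1.03 CPM in wild-type mTBI, a difference of 0.27 that edgeR did not call (adjusted p = 0.123) and DESeq2 did. Its 3 wild-type mTBI libraries were above its 3 sham libraries, in a comparison where 23.9% of all genes had groups that did not overlap.

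Over the 9 libraries, the nuclear genes whose log2 CPM ran most closely with that of the 10 genes summed were Rap1gds1 (Pearson r = 0.98, Spearman rho = 0.92), P4htm (0.96 and 0.95), Gtpbp6 (0.95 and 0.97), Thoc3 (0.93 and 0.80) and Habp4 (0.92 and 0.85), ranked among named genes with a mean of at least 100 counts. These are descriptions over 9 points that share their depth, and 5 genes were picked as the most alike of all. Without knockout replicate 1 and wild-type mTBI replicate 1, the libraries farthest from the median, r over the other 7 was 0.90, 0.85, 0.90, 0.68 and 0.72. Rap1gds1 itself spanned only 304 to 345 CPM. The chromosome 1 model of mt-Atp6, Gm10925, had r = 0.95.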

How the data were processed

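Gene counts from 9 libraries were analysed as deposited. Per the file header, the authors made these raw counts with featureCounts 2.0.6 on exons of the Ensembl 98 GRCm38 annotation, for paired reads, with no option for strand, for reads of several places or for read pairs as units. HISAT2, SAMtools, Trim Galore, MultiQC and FastQC are named in the submitters' processing notes. Totals were 36452443 to 39590872 counts per library, and 58.7% to 60.3% of counts above 0 were even, so mates may count singly. Gene names came from GENCODE M21 for 55240 of 55421 genes.

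CPM were computed on totals scaled by the trimmed mean of M-values (TMM), with factors of 0.99 to 1.01. Differences were fitted with edgeR 4.0.16 (R 4.3.3; glmQLFit, glmQLFTest, 2-sided) on all 9 libraries after filterByExpr, which left 20032 genes, and called at an adjusted p under 0.05. The fit was tested on simulated data in which all groups had the same spread, unlike these libraries. DESeq2 1.42.0 was an alternative. Members, gene lists and tests were chosen with earlier results of these data known. Named were all members, the other mitochondrial messages and ribosomal RNAs, some of the 3 genes of smallest p that the rule allows from each other list, and the 5 nuclear genes most correlated with the members' sum. Of 22 alternatives, 3 were added after seeing the data: leaving out replicate 1 of both injured groups together, adding each chromosome 1 model to its gene, and summing the sham libraries to 1 sample.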

Additional observations from a re-analysis of the deposited data

How the results depend on the processing

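None of the 10 genes was called in any comparison under the alternatives run, except that with no filter on low counts 1, mt-Nd4l, was called in knockout against wild-type mTBI (1.63, adjusted p = 0.000105) and 1, again mt-Nd4l, in knockout mTBI against sham (0.98, adjusted p = 0.02); the cause was not tested. Calls over all genes depended far more on the fit. In wild-type mTBI against sham 102 genes were called, but 541 with DESeq2, 676 with no filter, 43 with a stricter filter of 1 CPM, 253 with the 6 libraries compared, 40 with mitochondrial messenger totals as the scale and 5 to 252 with a library left out. The other comparisons called 3 and 14 genes, but 19 and 226 with DESeq2, 68 and 387 with no filter, 1 and 71 with 6 libraries, and 7 in the second with the stricter filter; with a library left out they called 2 to 7 and 2 to 128. With the sham libraries summed to 1 sample, assumed to vary like the others, the 3 comparisons called 1, 1 and 0 genes. Of 660 differences of the 10 genes under 22 alternatives 603 kept sign and call, 55 changed sign and 2 became called; the sign changes started from differences that had not passed the test.

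With injury mt-Nd5 went from 0.00091 to -0.008 with RLE scaling and with DESeq2, -0.00088 with no filter, -0.015 with the stricter filter, -0.0067 with 6 libraries, -0.00073 with counts divided by 2 and -0.083 on mitochondrial messenger totals. That last scale moved the median of all genes by -0.066, -0.021 and -0.10 in the 3 comparisons. On it mt-Co1 was -0.0055 and mt-Co3 -0.029 with injury, and in knockout mTBI against sham mt-Nd1 was -0.029, mt-Nd2 -0.042, mt-Nd4 -0.028, mt-Nd6 -0.00042 and mt-Co2 -0.078. Summed with their chromosome 1 models, mt-Nd3 was -0.20 in knockout against wild-type mTBI and mt-Co3 0.079 in knockout mTBI against sham. With replicate 1 of both injured groups left out, mt-Nd1, mt-Nd2, mt-Nd6, mt-Co2 and mt-Co3 were -0.0052, -0.044, -0.011, -0.26 and -0.11 with injury. In the same fit mt-Nd2, mt-Nd4, mt-Nd6, mt-Co2, mt-Rnr1 and mt-Rnr2 were 0.033, 0.017, 0.041, 0.29, 0.11 and 0.13 in knockout against wild-type mTBI, and mt-Nd1 and mt-Nd2 -0.015 and -0.011 in knockout mTBI against sham.

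Leaving out each library in turn gave the following ranges where they crossed 0; the other ranges of the 10 genes kept their sign. With injury they were -0.0052 to 0.19 for mt-Nd1, -0.044 to 0.24 for mt-Nd2, -1.04 to 0.25 for mt-Nd3, -0.10 to 0.046 for mt-Nd5, -0.011 to 0.40 for mt-Nd6, -0.26 to 0.43 for mt-Co2 and -0.11 to 0.16 for mt-Co3. In knockout against wild-type mTBI they were -0.14 to 0.09 for mt-Nd1, -0.18 to 0.11 for mt-Nd2, -0.049 to 0.19 for mt-Nd3, -0.15 to 0.06 for mt-Nd4, -0.29 to 0.12 for mt-Nd6, -0.024 to 0.11 for mt-Co1, -0.41 to 0.29 for mt-Co2, -0.24 to 0.026 for mt-Co3, -0.32 to 0.006 for mt-Rnr1 and -0.32 to 0.027 for mt-Rnr2. In knockout mTBI against sham they were -0.015 to 0.15 for mt-Nd1, -0.011 to 0.13 for mt-Nd2, -1.02 to 0.27 for mt-Nd3, -0.021 to 0.052 for mt-Co2 and -0.23 to 0.02 for mt-Co3.

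Replicate numbers are shared between groups, but deviations of same-numbered libraries had correlations of -0.0887 to 0.0733, with 0 of 9 pairs over 0.1, so the numbers were not taken as pairing. With the replicate number as a block 107, 3 and 13 genes were called and 0 of the 10.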
